A study of Mus musculus with 9 samples.

Results

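The genes described here are the cytoplasmic ribosomal protein genes of the mouse. Members were the protein-coding genes of GENCODE M21 whose symbol is Rpl or Rps followed by a number and at most 1 letter, together with Rpsa and Rplp0, Rplp1 and Rplp2. This gave 80 genes of the 21938 protein-coding genes on chromosomes 1 to 19, X and Y. Rps6k kinases and pseudogenes were left out, and 11 protein-coding genes with longer symbols, such as Rps3a1, Rpl36al and Rpl22l1, fell outside the rule. The members comprised 30 genes of the small subunit, 43 of the large subunit, the 3 genes of the P stalk and 4 paralogs whose symbol ends in l (Rpl3l, Rpl10l, Rpl39l and Rps27l).

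ChIP-nexus, in which an exonuclease trims precipitated chromatin up to the crosslinked protein, was performed in N2A cells, a mouse neuroblastoma line. The cells were transiently transfected with EGFP-GR (glucocorticoid receptor) and mCherry-MR (mineralocorticoid receptor), and each receptor was precipitated through its tag. Cells received vehicle for 20 minutes, 100 nM CORT (corticosterone, the glucocorticoid hormone of rodents) for 20 minutes, or the same dose of CORT for the same time, after which they were washed and left without hormone for 40 minutes more (washout). The 9 samples are GR, MR and input chromatin for each of the 3 treatments, and the authors combined 3 replicates into 1 list per condition, so no spread between replicates can be given. All groups carry both tagged receptors at once, and binding of the receptors at endogenous levels was not measured. The receptors are mouse in the text deposited with the data and rat in the study's methods, so their species cannot be stated here.

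Ribosomal proteins assemble with ribosomal RNA into the small and large subunits of the ribosome. Their genes are short, are transcribed at high levels in nearly every growing cell, and have left many processed pseudogenes in the genome. Their messenger RNAs typically start with a run of pyrimidines, which couples their translation to growth signals. GR and MR are hormone-activated transcription factors that bind the glucocorticoid response element (GRE), an inverted repeat of a hexamer, and ribosomal protein genes are not among their textbook targets. The genes were therefore used to ask whether short, active genes draw receptor peaks. No transcript levels are part of these files, so the activity of the genes in N2A cells is background knowledge and was not measured.

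The answer depended on which part of the window was counted and on the reference. After CORT 17 of the 80 genes had a GR peak, and 15 had one of MR, in the gene or within 5 kb, about as often as the average protein-coding gene. That was more often than in the genes closest to them in length when any summit in the window counted. For MR it was not clearly so when the reference also matched on a neighbour's start in the window. Nor was it for MR against all genes in the length range, or for GR with stronger peaks alone. It was not clearly so for either receptor when a peak was given to the nearest GENCODE start alone, which depends on the annotation. Most of these peaks lay in the flanks, and many sat in or at the start of a neighbouring gene. Within the ribosomal protein genes themselves and at their starts no difference from other genes of that length was detectable. Those counts rest on few genes with wide intervals, so a contrast between the genes and their flanks is not shown. Rpl27 differed in position and in time. A peak at its start was present in both receptors' lists after CORT and in both after washout.

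The sequences below are those of the sites that the results turn on. They are on the plus strand of GRCm38 with coordinates counted from 1, and the capitals mark the 15 bases closest to a GRE, written as AGAACA, any 3 bases and its inverted copy, of which 12 positions are fixed. The search covers both strands because the pattern is its own reverse complement. The Rpl27 promoter is the RefSeq sequence of GRCm38.p6 before the transcription start, chr11:101441995-101442244, and the other sequences are windows around peak summits.
Rpl27 promoter: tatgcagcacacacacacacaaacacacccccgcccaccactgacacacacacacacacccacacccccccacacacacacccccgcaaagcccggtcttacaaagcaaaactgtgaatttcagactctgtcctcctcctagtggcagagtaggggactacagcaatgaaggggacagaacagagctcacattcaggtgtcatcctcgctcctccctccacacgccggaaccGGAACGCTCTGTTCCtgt
Rpl27 downstream site: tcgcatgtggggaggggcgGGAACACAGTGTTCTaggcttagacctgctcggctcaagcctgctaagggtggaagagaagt
Rpl38 site: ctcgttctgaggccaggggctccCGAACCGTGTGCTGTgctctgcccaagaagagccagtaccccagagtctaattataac
Rpl28 start site: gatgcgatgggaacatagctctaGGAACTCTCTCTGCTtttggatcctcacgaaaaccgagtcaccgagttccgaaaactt
Rps21 washout site: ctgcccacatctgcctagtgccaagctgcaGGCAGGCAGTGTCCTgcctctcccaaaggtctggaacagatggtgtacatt
The best match in the Rpl27 promoter had 3 mismatches of the 12 fixed positions and began 18 bases before the RefSeq start, which is 53 bp from the start that GENCODE gives. The Rpl27 downstream site, chr11:101448650-101448730 in an intron of Ifi35, held a match with 1 mismatch. The Rpl38 site, chr11:114676787-114676867 in an intron of Ttyh2, and the Rpl28 start site, chr7:4792676-4792756 upstream of the gene, had best matches with 4 mismatches in these windows. The Rps21 washout site, chr2:180254949-180255029 upstream of the gene, had 5 mismatches. A match is a description of the letters and not a measured binding site.

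The numbers of genes with a peak rest on 6 lists of MACS2 peaks. The GR lists held 64 peaks with vehicle, 10602 with CORT and 246 with washout. The MR lists held 73, 14638 and 4885. A gene counted as having a peak when the summit, the highest point of the peak, lay in the gene or within 5 kb of either end. The median length of the members was 3328.5 bp (828 to 31449 bp) against 17425 bp for all protein-coding genes, so a short gene offers a smaller target. A reference was therefore formed for each member from the 200 other protein-coding genes closest to it in length, and the percentages were averaged over members. These averages are given as genes of like length. Where the text says reference genes, the 5881 distinct genes so drawn were pooled without that averaging, so their lengths are not weighted as those of the members. Intervals are 95% Wilson intervals, which cover counting error only and treat genes as independent, although neighbouring genes can share a peak.

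After vehicle no member had a peak of either receptor (0 of 80, upper limit 4.58%). The percentage over all protein-coding genes was 0.082% for GR and 0.0775% for MR, so a count of 0 among 80 genes is what these percentages would give. After CORT 17 members had a GR peak, which is 21.25% (13.7 to 31.4%), against 17.7% of all protein-coding genes and 9.30% of genes of like length. At the latter percentage 7.44 members would have a peak. For MR after CORT 15 members had a peak, which is 18.75% (11.7 to 28.7%), against 20.5% of all protein-coding genes and 10.1% of genes of like length. After washout 4 members had an MR peak, 5% (1.96 to 12.2%), against 9.41% of all protein-coding genes and 3.49% of genes of like length. Rpl27 was the only member of the GR washout list, 1.25% (0.221 to 6.75%), against 0.67% of all protein-coding genes and 0.331% of genes of like length.

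**Figure D1:**
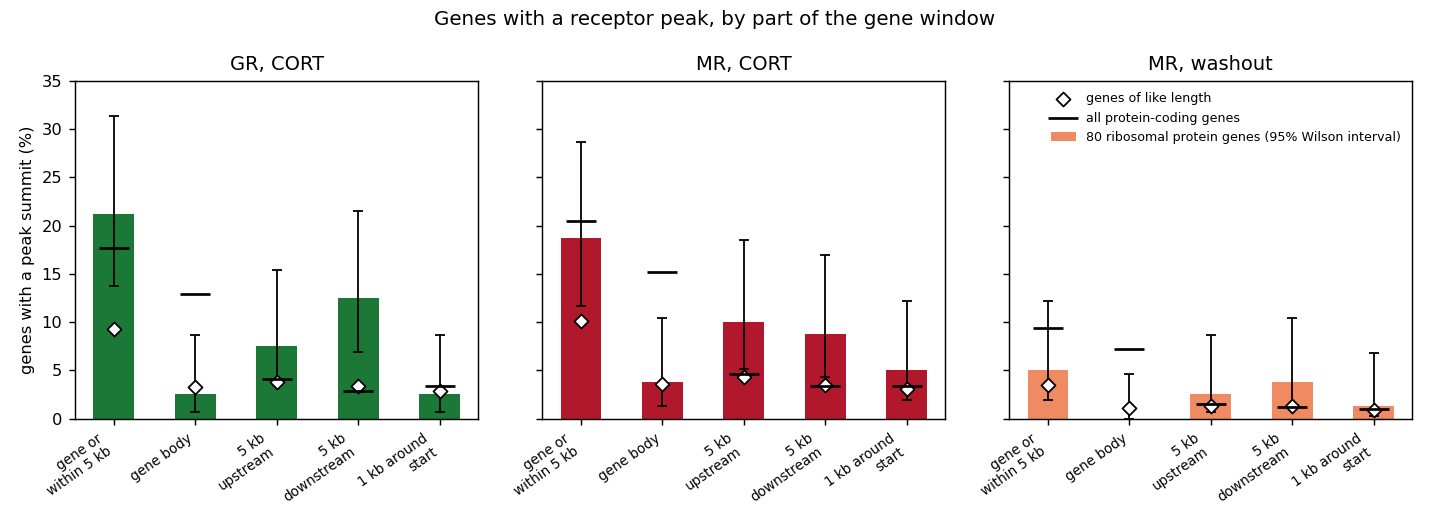
Percentage of genes (vertical axis) with a peak summit in each part of the gene window (horizontal axis) for GR after CORT, MR after CORT and MR after washout. Bars are the 80 ribosomal protein genes with 95% Wilson intervals, diamonds the genes of like length and dashes all protein-coding genes. The bars stand above the diamonds for the whole window after CORT (21.25 against 9.30% for GR and 18.75 against 10.1% for MR) and close to them for the gene body.

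A difference from genes of like length was seen in the flanks, while the counts within the gene were too small to tell. Within the gene itself 2 members (Rpl11 and Rpl31) had a GR peak after CORT, 2.5% (0.688 to 8.66%), against 3.29% of genes of like length and 12.9% of all protein-coding genes. For MR after CORT there were 3 (Rpl11 and Rpl3l among them), 3.75% (1.28 to 10.45%), against 3.58% and 15.2%. In the 5 kb upstream 6 members had a GR peak, 7.5% (3.48 to 15.4%), against 3.84% of genes of like length and 4.09% of all. For MR there were 8, 10% (5.15 to 18.5%), against 4.30% and 4.58%. In the 5 kb downstream 10 members had a GR peak, 12.5% (6.93 to 21.5%), against 3.41% and 2.89%. For MR there were 7, 8.75% (4.30 to 17.0%), against 3.52% and 3.34%. Of these 4 flank values the interval lay above the value for genes of like length in 3, and the interval for GR upstream contained it, as did both intervals for the gene body.

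At the starts of the genes no difference was detectable. A summit lay within 1 kb of the gene's start in 2 members for GR after CORT, 2.5% (0.688 to 8.66%), against 3.4% of all protein-coding genes and 2.91% of genes of like length. For MR after CORT 4 members had such a summit, 5% (1.96 to 12.2%), against 3.32% of all protein-coding genes and 3.03% of genes of like length. After washout Rpl27 alone had one, for MR against 0.98% and for GR against 0.0957% of all protein-coding genes. With 80 genes these intervals are wide, and a percentage up to 8.66% for GR or 12.2% for MR cannot be told from the one measured.

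Ribosomal protein genes lie among close neighbours. The median number of protein-coding starts within 100 kb was 6 for the members and 4 for all protein-coding genes. The window of 40 of the 80 members (50%) held the start of another protein-coding gene, against 31.3% of the reference genes. Among those 40 members 11 had a GR peak after CORT, 27.5% (16.1 to 42.8%), and 13 an MR peak, 32.5% (20.1 to 48.0%). Reference genes with such a neighbour had a GR peak in 15.8% and an MR peak in 16.0%, and all protein-coding genes with one in 21.04% and 23.7%. Among the other 40 members 6 had a GR peak, 15% (7.06 to 29.1%), and 2 an MR peak, 5% (1.38 to 16.5%), against 7.18% and 7.80% of the reference genes without such a neighbour and 16.1% and 19.01% of all protein-coding genes without one. For MR, peaks were thus mostly found at members with a neighbour's start in the window, and the members without one had an interval that contained the reference value and lay below that of all protein-coding genes without one.

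Genes closest in length with a like number of starts within 100 kb gave 9.51% for GR and 10.4% for MR after CORT. Both member intervals lay above these values. When the reference was drawn from genes that, like each member, had or lacked another start in the window, the reference was 11.1% for the GR list and 11.9% for the MR list of the CORT treatment. The member percentage for GR still had an interval above it, and the interval for MR then contained it. The same held when all genes in the members' range of lengths served as reference (11.8% for GR and 13.2% for MR). When a peak was given only to the nearest protein-coding start, 9 members were listed for GR and 9 for MR (11.25% each, 6.03 to 20.02%), against 6.81% and 7.64% of genes of like length, and both intervals contained these values. The starts were those of GENCODE, which gives Rps14 31449 bp and Rpl3 14078 bp, against 3951 and 5626 bp in RefSeq. Peaks downstream of both genes went to Cd74 and Syngr1. An assignment by RefSeq starts could list more members and was not tested. With stronger GR peaks alone (−log10 q of at least 5) 8 members were listed after CORT, 10% (5.15 to 18.5%), which also contained the reference of 5.31%. For MR at that threshold it was 10 members, 12.5% (6.93 to 21.5%), against 6.68%.

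The peaks themselves were counted once where genes shared them. The member windows held 21 GR and 21 MR summits after CORT, 6 MR summits and 1 GR summit after washout, and none after vehicle. They fell into 32 sites of overlapping peaks. Of the 21 GR summits after CORT 10 had a member's start as the nearest protein-coding start, and of the 21 MR summits 11 did. For 7 of the GR summits and 11 of the MR summits after CORT, the position lay inside another protein-coding gene. Within 1 kb of another gene's start there were 5 GR and 5 MR summits, against 2 and 4 within 1 kb of a member's start. The same counts for windows of the reference genes are not given here, so these positions cannot be called particular to the members.

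Relative to the length of DNA searched, the member windows (1.14 Mb) held 18.4 summits per Mb for GR after CORT, with an exact Poisson interval of 11.4 to 28.1. The windows of the reference genes held 8.02, those of all protein-coding genes 6.07 and the chromosomes as a whole 3.88 per Mb. MR after CORT gave 18.4 (11.4 to 28.1) in member windows, 9.28 in windows of the reference genes and 8.32 in windows of all protein-coding genes. After washout the MR values were 5.25 (1.93 to 11.4), 3.03 and 2.69. The Poisson intervals treat summits as independent, although some member windows held several close summits of a list, so they may be too narrow.

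**Figure D2:**
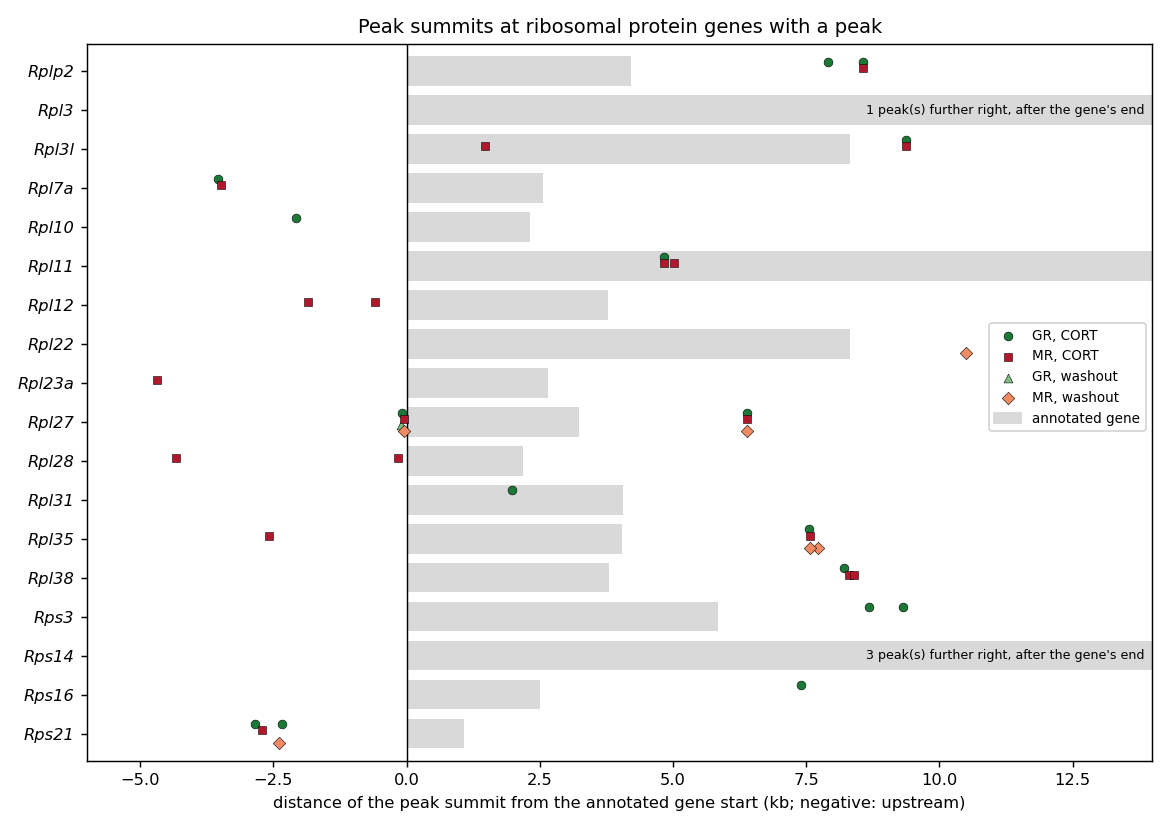
Position of each peak summit (horizontal axis, kb from the annotated gene start) at 18 of the 21 ribosomal protein genes with a peak (rows), with annotated genes in grey and marker shape and colour by list. Symbols cluster in the flanks, and only Rpl27 has 4 lists at its start. The summits at Rpl3 and Rps14 lie beyond the right edge and are counted in the plot.

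Of the 80 members 59 had no peak in any list. Both receptors were listed after CORT at 12 members, among them Rpl11, Rpl27, Rpl35, Rpl38, Rpl3l, Rpl7a, Rplp2, Rps14 and Rps21. That is 12 of the 20 members with a CORT peak of either receptor, 60% (38.7 to 78.1%). The share was 58.6% of all protein-coding genes with such a peak and 52.0% of such reference genes, both within the interval. GR alone was listed at Rpl10, Rpl3, Rpl31, Rps16 and Rps3, and MR alone at Rpl12, Rpl23a and Rpl28. Rpl22 had an MR peak after washout and in no CORT list. The authors called the lists of both receptors against input, so a gene listed for both is not independent evidence of binding. Among small subunit genes 5 of 30 were listed for GR and 3 of 30 for MR after CORT. Among large subunit genes the numbers were 10 and 10 of 43. The P stalk and the paralogs ending in l had 1 gene each with both (Rplp2 of 3 genes and Rpl3l of 4). Over all protein-coding genes the shares were 17.7% for GR and 20.5% for MR, and differences between these groups were not tested.

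Peak strength is given as −log10 p of the peak against input, which rises with depth and is compared only within a list. Rpl27, which encodes a large subunit protein, had the peak closest to a start that occurred in all CORT and washout lists. Its GR summit lay 80 bp upstream of the GENCODE start after CORT (−log10 p 15.3) and 101 bp upstream after washout (21.1). Its MR summit lay 50 bp upstream after CORT (16.5) and 43 bp upstream after washout (22.6). All 4 values were in the top part of their lists, at percentiles 89.7, 91.1, 90.6 and 95.4. The match in capitals in the Rpl27 promoter lies among these summits. The MR CORT peak there overlapped an MR border pair, a stretch between positions where the exonuclease stopped on opposite strands, and no input border pair overlapped any member peak. The GR and MR washout peaks at the Rpl27 start overlapped no border pair of their own sample.

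Another Rpl27 site lay 3159 to 3164 bp past the gene's end. It was listed for GR after CORT (15.7), MR after CORT (19.6) and MR after washout (18.0). Its summits were 286, 283 and 281 bp from the start of Ifi35, an interferon-induced gene, and lay in an Ifi35 intron. Among member peaks it carried the GRE match with the fewest mismatches.

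The strongest member peaks of the CORT lists belonged to the window of Rpl38, which encodes a large subunit protein linked to translation of Hox messenger RNAs. The GR peak had a −log10 p of 20.3 (percentile 96.3) and the stronger of 2 MR peaks 26.2 (percentile 97.5). Both lay downstream of Rpl38 in an intron of Ttyh2, 1309 and 1396 bp from the Ttyh2 start. After washout no peak of either receptor was listed there.

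Rpl28 and Rpl12, both of the large subunit, also had a summit within 1 kb of the start, for MR alone. At Rpl28 the MR summit was 158 bp upstream (9.17, percentile 51.2), and at Rpl12 it was 597 bp upstream (10.6, percentile 64.8), in an exon of Lrsam1, a gene that runs the other way.

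Other members had their peaks inside neighbouring genes. Rpl35, of the large subunit, was listed after CORT for GR (12.8) and MR (14.9) and after washout for MR with 2 peaks (10.9 and 8.87), all in an intron of Wdr38. It also had a weak MR peak upstream (6.54). Rpl7a, of the large subunit, was listed for GR (12.8) and MR (16.5) in an exon of Med22. Rpl3l, the paralog of Rpl3 that is known from striated muscle, was listed for GR (11.4) and MR (13.4) in an intron of Msrb1 and for MR (10.6) in its own intron. Rplp2 of the P stalk had GR peaks of 6.15 and 7.13 and an MR peak of 11.98, all inside Pnpla2, a lipase gene.

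Rpl11, Rps14 and Rps21 had peaks of both receptors outside other genes. Rpl11, whose protein is known to bind Mdm2, had a GR peak (8.93) and MR peaks (8.20 and 6.28) in an intron of its long annotated span of 25164 bp. RefSeq gives the gene as 4040 bp, and these summits lie outside that span. Rps14 had GR peaks of 6.15 and 7.38 and an MR peak of 9.17 after the end of an annotated span of 31449 bp, which RefSeq gives as 3951 bp. Rps21 had GR peaks of 8.66 and 6.41 and an MR peak of 6.28 after CORT, all between 2337 and 2841 bp upstream. Its MR peak after washout was stronger within its list (10.9, percentile 65.8) and overlapped one of the GR peaks, not the MR peak after CORT. Rpl22 had its MR washout peak (10.3) 2168 bp past the gene.

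**Figure D3:**
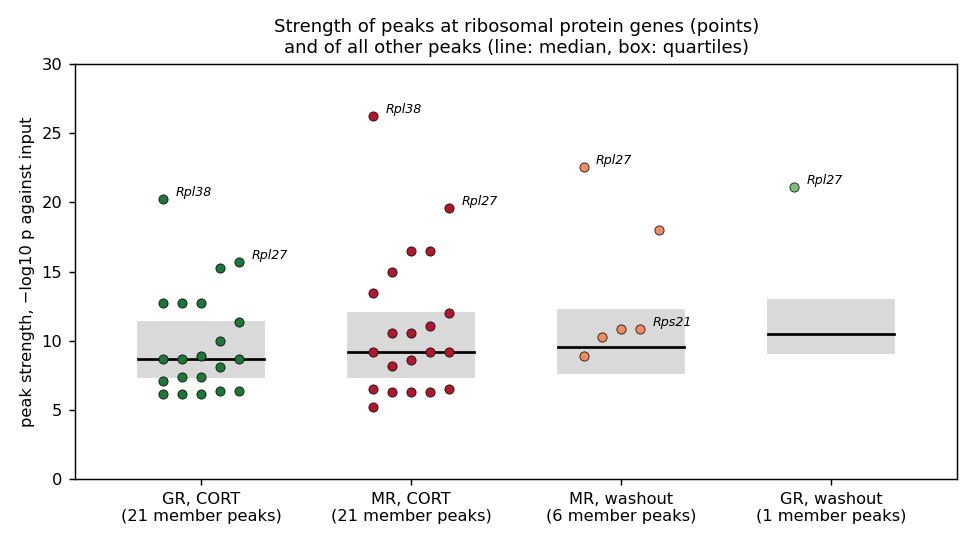
Peak strength (vertical axis, −log10 p against input) of each member peak (points) by list (horizontal axis), with the median (line) and quartiles (box) of all other peaks in that list. Member peaks spread over the range of the lists after CORT with the same median as other peaks, 8.66 for GR and 9.17 for MR, and Rpl38 and Rpl27 lie above the boxes.

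Member peaks were of ordinary strength. The median −log10 p was 8.66 (6.15 to 20.3) for the 21 GR peaks after CORT and 8.66 for all other GR peaks, and 9.17 (5.20 to 26.2) for the 21 MR peaks against 9.17. Of the GR peaks 2 and of the MR peaks 3 stood in the top 10% of their list. After washout the 6 MR peaks had a median of 10.9 (8.87 to 22.6) against 9.57.

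Of the 21 GR peaks after CORT 10 had a GRE with at most 3 mismatches in the 100 bp on either side of the summit, which is 47.6% (28.3 to 67.6%) against 37.7% of other GR peaks. For MR after CORT it was 7 of 21, 33.3% (17.2 to 54.6%), against 39.9%, and for MR after washout 3 of 6 (50%, 18.8 to 81.2%) against 45.5%. The difference for GR turned with the mismatches allowed, since at most 2 gave 9.52% of member peaks against 10.5% of others and at most 4 gave 71.4% against 79.0%. All 3 intervals contained the value for other peaks, so no difference in GRE content was detectable with these numbers.

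Few members were also listed after washout. Of the 15 members with an MR peak after CORT, Rpl27, Rpl35 and Rps21 also had one after washout, 20% (7.05 to 45.2%), against 41.6% of all protein-coding genes with an MR peak after CORT and 32.8% of the reference genes. At the level of peaks, 3 of the 21 MR peaks after CORT shared at least 1 bp with a peak of the MR washout list, 14.3% (4.98 to 34.6%), against 24.6% of other MR peaks. Of the 17 members with a GR peak, Rpl27 alone had one after washout as well, 5.88% against 3.69% of all protein-coding genes with a GR peak after CORT. The intervals for MR contained the reference values.

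Input chromatin did not single out these genes. The border pairs of input fell in 1 member window for each treatment, at 1.25% of members, against 8.62%, 6.78% and 7.06% of all protein-coding genes and 3.91%, 3.01% and 2.76% of genes of like length. They were at Rpl31 after vehicle, Rpl8 after CORT and Rpl11 after washout. MR border pairs after CORT fell in 4 member windows (Rpl12, Rpl27, Rpl7a and Rplp2), 5% against 1.94% of genes of like length and 5.71% of all. After washout there were 2 such windows (Rpl27 and Rpl3), 2.5% against 1.06% of genes of like length and 2.33% of all.

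The many pseudogene copies of ribosomal protein messenger RNAs bear on where reads could be placed, because reads of low mapping quality had been removed. Of the 50-base stretches in member exons 76.9% occurred once in the genome, against 97.6% in introns and 94.2% in the 5 kb flanks. The median over members was 72.6% for exons, and 10 members were below 50%, with Rps6 lowest at 28.2%. Within 500 bp of the start the median was 99.7%, with no member below 50%, so sequence around the starts was mostly unique. Whether this affected the number of exon peaks (0 for GR and 1 for MR after CORT) was not tested. No exon count of other genes is given here, so these numbers cannot be called low.

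**Figure D4:**
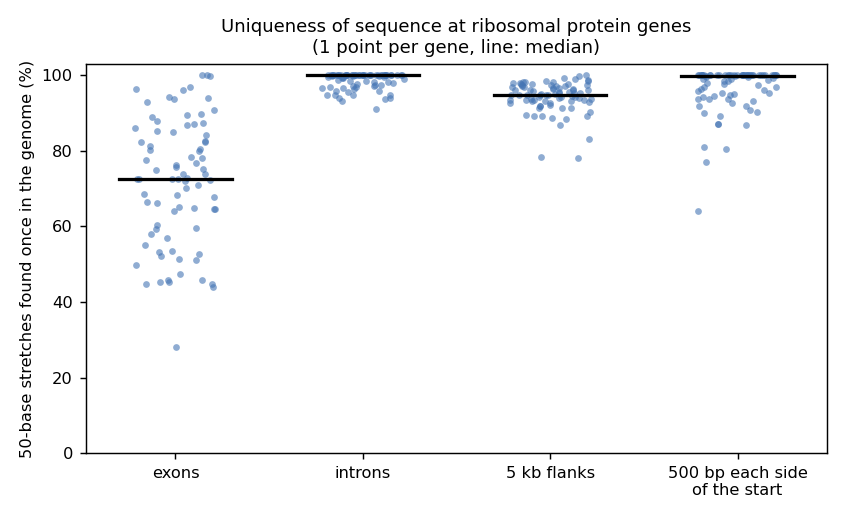
Percentage of 50-base stretches that occur once in GRCm38 (vertical axis) in the exons, introns, flanks and start regions of each ribosomal protein gene (points; line, median). Exons spread down to 28.2%. Introns, flanks and starts are mostly higher, with flanks down to 78.1% (Rpl10) and starts down to 64.2% (Rps29).

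Promoter sequences of 60 of the 80 members were matched in RefSeq (GRCm38.p6), each 300 bases from 250 before the start. A GRE with at most 3 mismatches occurred in 5 of them (Rpl24, Rpl27, Rpl35a, Rpl37a and Rpl5), 8.33%, against 12.1% of 16522 promoters. The hexamer AGAACA, which overlaps the GRE pattern, occurred on either strand in 9 (15%), against 16.0%. A run of at least 6 pyrimidines within 21 bases at the start was found in 34 (56.7%), against 29.3%, which is the feature these genes are known for. Of the 5 members with such a GRE only Rpl27 had a peak at its start.

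Other gene families put these numbers in scale. Mitochondrial ribosomal proteins (78 genes, median 7899.5 bp) had a GR peak after CORT in 9 (11.5%, reference of like length 11.96%) and an MR peak in 13 (16.7%, 13.6%). Proteasome subunits (39 genes) had 7 (17.9%, 15.4%) and 8 (20.5%, 17.4%). Translation factors and other partners of the ribosome (20 genes) had 4 (20%, 13.9%) and 6 (30%, 14.5%), with both receptors listed at Eef1d, Eef1g, Eef2 and Eif4b and neither at Fau and Rack1. Textbook glucocorticoid targets such as Fkbp5, Per1 and Sgk1 (16 genes) had 11 for each receptor (68.8%), against 17.2% and 19.8% of genes of like length, and 8 (50%) had an MR peak after washout. The intervals of the ribosomal protein genes, up to 31.4% and 28.7%, lay below that of the targets, which began at 44.4% for each receptor.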

How the data were processed

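Per the study's methods, the authors mapped quality-filtered reads with Bowtie 2 to GRCm38 (mm10), kept 1 read per random barcode and locus, and removed poorly mapped reads. Replicates (3 per condition) were combined. Peaks are those of MACS2 (version 2.1.1.20160309 in the submitters' processing notes) against input, with an FDR of 0.05, and border pairs those of MACE. The deposited peak files hold −log10 p and −log10 q, the latter under a heading for fold enrichment, and a score that is the whole part of 10 times −log10 q. The deposited border pair files give the p-value that MACE computed, were used for positions only, and that of GR after CORT was not used. The files used here hold no read counts, so no depth was computed, and the number of peaks sets the precision.

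Genes were those of GENCODE M21, and spans and promoters of RefSeq were used where named. All 80 members were counted. Members, lists and tests were chosen with earlier results of these data known. Named with values are members in the GR washout list, with a summit within 1 kb of the start, with peaks in both CORT lists, or with the 5 strongest peaks of a list, and some of these are not reported here. A length reference used 200 genes per member. No test between conditions was run, because there is 1 list per condition. The other gene families stand beside the members as counts. Methods were tested on simulated data. Alternatives changed the flank, peak threshold, gene assignment, reference, motif and gene span. Python 3.11.15 with numpy 2.4.6, pandas 2.3.3, scipy 1.17.1, numba 0.67.0 and matplotlib 3.10.9 was used.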

Additional observations from a re-analysis of the deposited data

How the results depend on the processing

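Each condition has 1 list pooled over replicates, so no replicate could be left out, and the files used here give no depth. No paired analysis was possible because the lists carry no replicate numbers and the results come from no test. Values are given in the order GR after CORT, MR after CORT and MR after washout. With summits in the gene only, 2, 3 and 0 members had a peak, against 3.29%, 3.58% and 1.10% of genes of like length. Within 1 kb of the gene they were 4, 6 and 1, against 5.01%, 5.56% and 1.74%. With peaks given to the nearest GENCODE start only they were 9, 9 and 2, against 6.81%, 7.64% and 2.73%. With −log10 q of at least 5 they were 8, 10 and 4 (10%, 12.5% and 5%), against 5.31%, 6.68% and 1.87%. Within 10 kb 23, 22 and 5 members (28.75%, 27.5% and 6.25%) had a peak, against 13.4%, 14.9% and 5.18%. All genes in the length range gave 11.8%, 13.2% and 4.90%, the 50 closest genes gave 3.28% for MR after washout, and leaving out olfactory, vomeronasal and trace amine receptor genes gave 11.2% for MR after CORT. Splitting the reference by another start in the window gave 11.1% for GR and 11.9% for MR after CORT. The split, the omission of receptor genes and the RefSeq spans were chosen after seeing the data. With RefSeq spans Rps16 lost its GR peak (16 members), and the MR numbers were 15 and 4. Within 2 kb of the start 4 members had a GR summit, and no share of other genes at that distance is given beside it. The GRE share moved to 9.52% of member peaks for each receptor with at most 2 mismatches, against 10.5% of other GR and 11.5% of other MR peaks, and to 71.4% with at most 4, against 79.0% and 82.1%. In each of these alternatives fewer or more genes, peaks or letters enter by construction.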
